A study of Mus musculus with 167 samples.

Results

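Genes of the B, T and natural killer (NK) lineages were followed in single lymphoid-primed multipotent progenitors (LMPPs), 10 of the 38924 genes in the table. They were taken by name: Ighm, Cd79a, Cd79b, Blnk and Ebf1 for the B lineage, Lck, Gata3 and Tcf7 for the T lineage, and Nkg7 and Id2 for NK cells and innate lymphoid cells (ILCs). The mice were wild-type C57BL/6J females of 4 or 14 months, untreated at either age, and LMPPs were isolated from their marrow. They were sorted as cells high for Flt3 that carried c-Kit, Sca-1 and CD34 and lacked CD150 and mature lineage markers, then captured singly on a Fluidigm C1 chip. The lineage antibodies include CD3e and B220, so cells with those proteins on their surface were removed. Levels are in TPM, a length-corrected measure in which every cell sums to 1000000, so values are shares of a cell's transcripts. Of 168 columns, each given as a cell, 130 had at least 1000 genes at TPM 1 or more and were kept, 64 of 4 months and 66 of 14 months.

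B cells sense antigen through a receptor made of an immunoglobulin heavy chain, whose first form is encoded by Ighm, and of the signalling chains CD79A and CD79B. The adaptor BLNK carries the signal onward, and the factor EBF1 switches on the B-lineage genes. In T cells the kinase LCK starts receptor signalling, while GATA3 and TCF-1 (encoded by Tcf7) set the early T-lineage programme. NKG7 is a granule membrane protein of cytotoxic cells, and ID2 holds E proteins inactive and is needed for NK cells and ILCs. LMPPs lie before these lineages part, and low-level transcription of lineage genes in such progenitors is known as lymphoid priming.

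Since the animals are not named in the labels, each age is 1 sample: no test was possible, and every difference is given without a replicate check. The 14-month columns carry the set numbers 4 (29 kept cells) and 5 (37 kept cells), which the sources used here do not explain, and the 4-month columns carry none, so age and capture cannot be told apart. The sequencing depth is unknown. The median number of genes detected was 3974.5 at 4 months and 3281 at 14 months (3230 in set 4 and 3376 in set 5), and the median mitochondrial share of TPM was 12.4% and 17.7%. The highest mitochondrial shares among kept cells were 69.1% and 91.7%. The sort's marker genes were present: Flt3 was detected in 64 and 61 cells, Cd34 in 57 and 58 and Kit in 43 and 35, while the Sca-1 gene Ly6a was in 25 and 25. Among the 8385 pairs of kept cells, 5 pairs correlated above 0.75 on the log2(TPM + 1) scale. All 5 pairs were of 14 months and joined 9 columns, 1 pair reached 0.97 across the sets, and no columns were identical. Such a pair may be 1 cell entered in the table more than once, which was not tested. Leaving out the second column of each pair kept 62 cells of 14 months. The value from those cells is given too for Nkg7, Gata3, the lineage classes and some of the counts. Other 14-month counts and shares rest on all kept columns and may count such a pair more than once.

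The promoters of 2 members are shown first, that of Cd79a because its transcript was found in a few cells of 1 age alone, and that of Nkg7 because it had the largest difference between the ages among the members. The sequences are RefSeq's, build GRCm38.p6, plus strand, from 250 bases before the RefSeq start site to the last base before the annotated gene. Capitals mark the letters CTCAAGGGA, which are those of a known EBF1 site in the Cd79a promoter, and CANNTG, the E-box read by E proteins.
Cd79a, chr7:24897247-24897380: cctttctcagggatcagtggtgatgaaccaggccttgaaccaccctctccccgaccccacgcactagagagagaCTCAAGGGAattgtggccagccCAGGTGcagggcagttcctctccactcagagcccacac
Nkg7, chr7:43436888-43437072: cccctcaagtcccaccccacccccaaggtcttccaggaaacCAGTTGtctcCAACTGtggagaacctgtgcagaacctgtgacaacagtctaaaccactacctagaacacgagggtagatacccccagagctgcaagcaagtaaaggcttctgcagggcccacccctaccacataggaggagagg

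A promoter entry matched 8 of the 10 members, with 11 windows of 300 bases (250 before and 50 after each start site). On both strands, CTCAAGGGA was found in 1 of these windows, that of Cd79a, with its first base at -176 from the start site. Of all 32851 promoter windows, 0.396% held it. CANNTG was in 10 of the 11 members' windows and in 72.3% of all windows. These matches are descriptions of letters, not of bound sites.

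The heavy chain gene stood far above the rest of the receptor. Ighm (chromosome 12, 113418558 to 113422730, minus strand, an immunoglobulin constant gene) was detected, at TPM 1 or more, in 51 of 64 cells of 4 months, 79.7% (exact Clopper-Pearson 95% interval, 67.8 to 88.7%, which like all intervals here covers counting error only). At 14 months it was in 53 of 66 cells, 80.3% (68.7 to 89.1%), with 82.8% in set 4 and 78.4% in set 5. Its TPM ran from 0 through a median of 265 to 1815 at 4 months, and from 0 through a median of 190 to 2158 at 14 months. The 2 ages overlapped over almost this whole range, and the median among cells with the transcript was 378 TPM at both. By mean TPM, 438 at 4 months and 411 at 14 months, Ighm ranked 300 among the 17824 genes above 0 at 4 months and 301 among 15145 at 14 months.

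Differences between the ages are given as 14 minus 4 months of mean log2(TPM + 1), relative to the median of the 9224 genes that were in a mean share of at least 10% of cells. That median was -0.36, and 77.0% of these measured genes had a lower mean and 81.4% a smaller share of cells at 14 months. Mean log2(TPM + 1) of Ighm was 6.46 (SD over cells 3.87, n = 64) at 4 months and 6.24 (SD 3.80, n = 66) at 14 months, a relative difference of 0.13. It was below 0 in 3 of 16 other settings, so no direction is given for it. Of the 7 members that were measured, 1 lay at least 1 above the median gene and 0 lay at least 1 below it. Of all measured genes, 3.37% lay that far above and 5.08% that far below. Set 4 alone against 4 months gave the same counts of members, where 4.59% of measured genes lay that far above and 6.75% that far below, and so did set 5, where these were 6.63% and 6.56%. The 1 member was Nkg7 each time. The remaining 3 members, Cd79a, Ebf1 and Tcf7, were in too few cells.

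The signalling chains were rarer. Cd79a (chromosome 7, 24897381 to 24902197, plus strand) was in 4 of 64 cells at 4 months, 6.25% (1.73 to 15.2%), at 924, 83.7, 55.7 and 1.02 TPM. At 14 months it was in 0 of 66 cells, which allows a share of up to 4.55% by 3 cells, and 5.44% by the exact interval. The 4-month mean of 16.6 TPM was 2.23 without the highest cell. The intervals overlap.

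The 4 cells with Cd79a were not those with the rest of the receptor. Ighm was at 0 in the 3 highest, and the 1 cell with Ighm (91.6 TPM) and Cd79b (55.0 TPM) had the lowest Cd79a. Transcripts of Cd34, Kit and Ly6a were all at 0 in the 2 highest, which held Flt3 at 16.4 and 8.66 TPM. The 2 cells with the lower Cd79a values held Cd34, Kit and Ly6a, and Nkg7 at 881 and 107 TPM. Pax5, Ms4a1, Cd22, Igkc and Igll1, genes of committed B cells, were at 0 in all 4.

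Cd79b (chromosome 11, 106311341 to 106314762, minus strand) was in 25 cells at 4 months, 39.1% (27.1 to 52.1%), and in 16 at 14 months, 24.2% (14.5 to 36.4%). Set 4 had it in 27.6% of cells and set 5 in 21.6%. Its median was 0 TPM at both ages and its highest values were 1378 and 971 TPM, so the cells overlapped throughout. The relative difference was -0.76, with -0.53 in set 4 and -0.91 in set 5. In 44 pairs of cells, 1 of each age, matched within 5% on the number of genes detected, it was -0.10, with shares of 31.8% at 14 months and 29.5% at 4 months. The 4-month share in the matched cells was below the 39.1% of all 4-month cells, and what the matching changed was not tested further.

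Blnk (chromosome 19, 40928927 to 40994535, minus strand) was in 7 cells at 4 months, 10.9% (4.51 to 21.2%), and in 10 at 14 months, 15.2% (7.51 to 26.1%). Its highest values were 603 and 403 TPM, and the means of 21.8 and 18.7 TPM became 12.6 and 12.8 once each age's highest cell was left out. All 17 cells with Blnk held Ighm and Dntt, the terminal transferase of early lymphoid cells; these were in most cells of both ages. The share and the level of the 2 ages overlapped, and the relative difference was 0.49.

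Ebf1 (chromosome 11, 44617317 to 45008091, plus strand) was in 1 cell of 4 months, at 2.70 TPM, and in 0 cells of 14 months, where 1 cell had 0.14 TPM. As for B cells themselves, 4 of their 8 matched marker genes, which include Cd79a and Cd79b, were found in no kept cell. The summed TPM of the 8 had a median of 0 at both ages, with highest values of 1378 at 4 months and 1615 at 14 months. The order of the B-lineage shares was thus Ighm, Cd79b, Blnk, Cd79a and Ebf1 at 4 months, and the intervals of Blnk and Cd79a, and of Cd79a and Ebf1, overlapped.

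**Figure D1:**
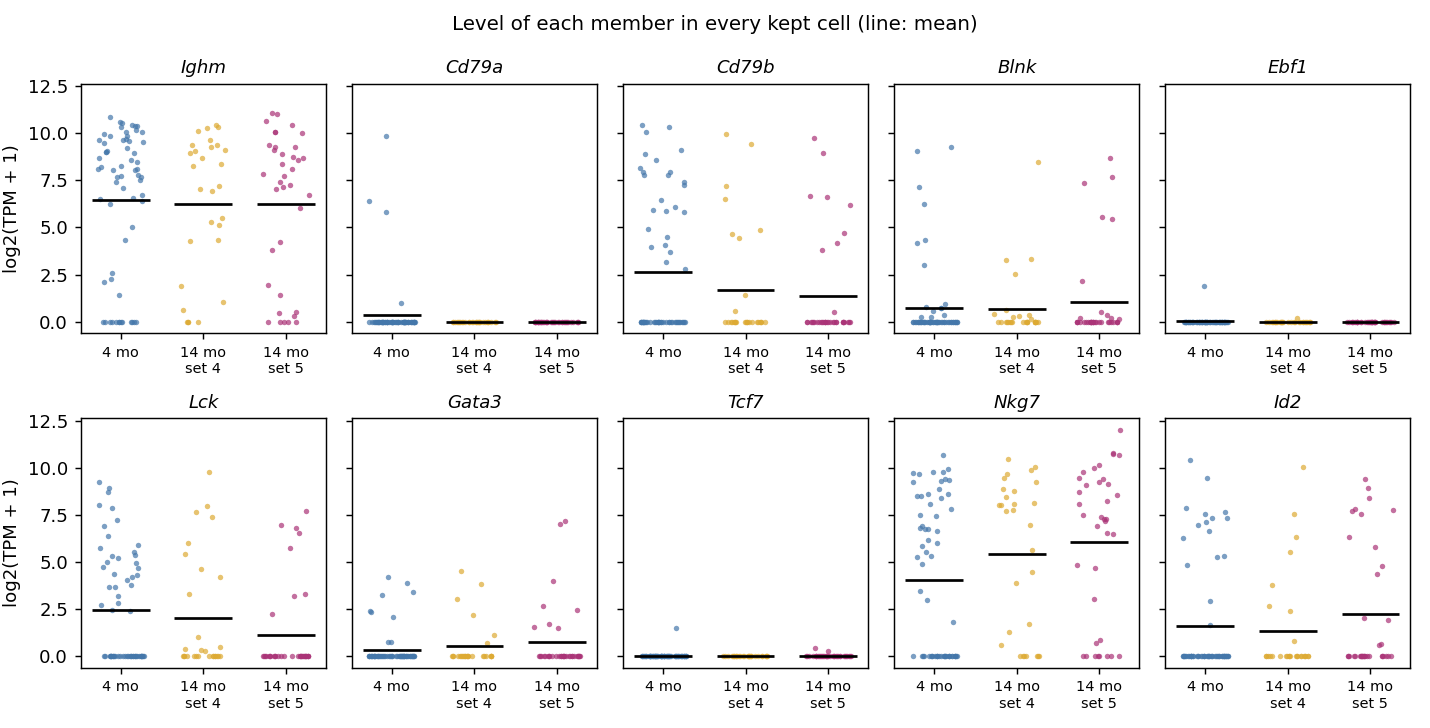
Each point is the level of a member in 1 kept cell, as log2(TPM + 1) on the vertical axis, for the 64 cells of 4 months and for sets 4 (29 cells) and 5 (37 cells) of 14 months, with a line at the mean and sideways scatter only to part the points. Ighm and Nkg7 filled most cells, while Cd79a, Ebf1 and Tcf7 were at or near 0 in nearly all.

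Among the T-lineage members, the kinase gene was common and the factors were not. Lck (chromosome 4, 129548344 to 129573641, minus strand) was in 30 cells at 4 months, 46.9% (34.3 to 59.8%), and in 18 at 14 months, 27.3% (17.0 to 39.6%). Its median was 0 TPM at both ages and its highest values were 595 and 874 TPM. Cells with it had a median of 30.6 TPM at 4 months and 58.6 TPM at 14 months, while the mean over all cells was 44.7 and 34.3 TPM. With each age's highest cell left out the means were 36.0 and 21.3 TPM, and the highest cell of 14 months lay in set 4.

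The 14-month sets differed for Lck. Its relative difference was -0.57 with both sets, -0.00 in set 4 and -0.97 in set 5. It was in 34.5% of set 4 cells and 21.6% of set 5 cells, both under the 46.9% of 4 months, where 81.2% and 75.9% of all measured genes were also in a smaller share of cells. In the cells matched on genes detected, Lck was in 31.8% at 14 months and 50.0% at 4 months.

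Gata3 (chromosome 2, 9857078 to 9890034, minus strand) was in 7 cells at 4 months, 10.9% (4.51 to 21.2%), and in 13 at 14 months, 19.7% (10.9 to 31.3%). Its values were low, with a highest of 17.7 TPM at 4 months. At 14 months 2 cells of set 5 had 146 and 130 TPM, and the next highest had 21.7 TPM. Those 2 columns are a near-identical pair, with a correlation of 0.91. With each such pair counted once, Gata3 was in 10 of 62 cells, 16.1%. The intervals of the ages overlapped, and the relative difference was 0.65 with all columns and 0.55 with pairs counted once.

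Tcf7 (chromosome 11, 52252371 to 52283014, minus strand) was in 1 cell of 4 months, at 1.81 TPM, and in 0 cells of 14 months, where 2 cells had 0.35 and 0.21 TPM. A count of 0 among 66 cells allows a share of up to 4.55%.

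Nkg7 (chromosome 7, 43437073 to 43438249, plus strand) had the largest difference of the members. It was in 35 cells at 4 months, 54.7% (41.7 to 67.2%), and in 48 at 14 months, 72.7% (60.4 to 83.0%), with 72.4% in set 4 and 73.0% in set 5. With near-identical columns counted once, Nkg7 was in 71.0% of 14-month cells. Its TPM ran from 0 through a median of 19.7 to 1615 at 4 months, and from 0 through a median of 162 to 4136 at 14 months. The cells of the ages overlapped over most of that range, and the lowest value was 0 at both.

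Mean TPM of Nkg7 was 197 at 4 months and 399 at 14 months, and with each age's highest cell left out it was 174 and 342. Mean log2(TPM + 1) was 4.07 (SD over cells 4.05, n = 64) and 5.79 (SD 4.02, n = 66), a relative difference of 2.07. That was rank 16 from the highest of the 9224 measured genes. The difference was 1.77 in set 4 and 2.34 in set 5, 1.98 with near-identical columns counted once and 2.54 in the cells matched on genes detected. In the matched cells the share was 77.3% at 14 months and 45.5% at 4 months, against 72.7% and 54.7% in all kept cells. The 4-month share was thus lower in the matched cells, and what the matching changed was not tested further. The difference between the ages was smaller than 1 SD over cells.

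The 8 NK and ILC marker genes were each in few cells or none. Other NK and ILC genes were in more. Tyrobp was in 35 cells of 4 months and 23 of 14 months, Fcer1g in 28 and 18, and Ets1 in 18 and 16. Ncr1, Prf1, Gzma, Gzmb, Eomes, Tbx21 and Il2rb were at TPM 1 or more in no kept cell. Klrd1, a lectin receptor chain of NK cells, was in 2 cells of 4 months and 4 of 14 months. Of these, 1 and 4 held Nkg7, where the products of the shares gave 1.1 and 2.9. Klrb1c, another such receptor, was in 1 cell of each age (236 and 36.9 TPM), both with Nkg7 (products 0.55 and 0.73 cells). The activating receptor gene Klrk1 was in 4 cells of 4 months, up to 354 TPM, and in 0 cells of 14 months. Of the 4 cells, 3 held Nkg7 (product 2.2). The summed TPM of the 8 NK and ILC marker genes had a median of 0 at both ages, with highest values of 236 and 728. Summed TPM of the 6 monocyte and neutrophil markers, of which 5 were found in a 4-month cell and 6 in a 14-month cell, had medians of 204 and 78.0 and highest values of 1445 and 11747, and their part in the difference of Nkg7 was not tested. Nkg7 was found with Mpo, the neutrophil granule peroxidase, in 22 cells of 4 months and 37 of 14 months, where the product of their shares gave 19.1 and 29.8.

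Id2 (chromosome 12, 25093799 to 25097140, minus strand) was in 16 cells at 4 months, 25.0% (15.0 to 37.4%), and in 20 at 14 months, 30.3% (19.6 to 42.9%). Its highest values were 1340 and 1064 TPM and its means were 55.3 and 59.3 TPM. The relative difference of 0.59 was uneven between the sets, at 0.14 in set 4 and 0.97 in set 5. The shares were 24.1% and 35.1%.

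**Figure D2:**
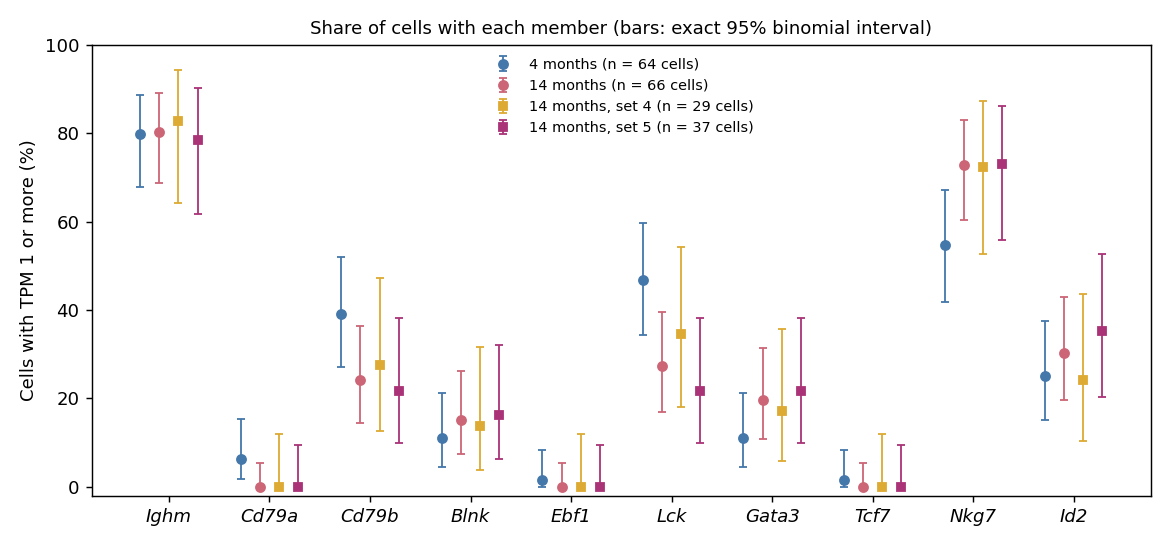
The vertical axis gives the percent of kept cells with each member at TPM 1 or more, as points with exact 95% binomial intervals, for 4 months, 14 months and the 2 sets of 14 months. Intervals of the ages overlapped for every member, and Nkg7 was at 54.7% at 4 months against 72.4% and 73.0% in the sets.

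Most cells held members listed under more than 1 lineage. Ighm and Nkg7 were each in most cells of both ages, while the 8 NK and ILC marker genes were in few cells or none. The classes are thus those of the listing, and no share without Nkg7 was computed. At least 1 of the 5 B-lineage members was in 85.9% of cells (75.0 to 93.4%) at 4 months and 83.3% (72.1 to 91.4%) at 14 months. Without Ighm, the shares were 50.0% and 36.4%. At least 1 of the 3 T-lineage members was in 53.1% (40.2 to 65.7%) and 40.9% (29.0 to 53.7%). Nkg7 or Id2 was in 68.8% (55.9 to 79.8%) and 78.8% (67.0 to 87.9%). With near-identical columns counted once, the 14-month shares of the 3 classes were 82.3%, 38.7% and 77.4%.

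A B-lineage member was found beside a T, NK or ILC member in 50 of 64 cells at 4 months, 78.1%, and in 47 of 66 at 14 months, 71.2% (69.4% with pairs counted once). The products of the shares within each age were 72.5% and 69.4%, so cells with both were about as common as the 2 shares taken alone would give. Ighm and Nkg7 were together in 30 cells (46.9%, product 43.6%) and 40 cells (60.6%, product 58.4%). With near-identical columns counted once, the 14-month number was 36 cells (product 34.8 cells). The median cell held 3 of the members at both ages, and the highest number was 7 at 4 months and 6 at 14 months. None of the members was found in 5 and 3 cells, which had medians of 1445 and 1665 genes detected against 4099 and 3284 in the other cells. The mitochondrial share of TPM ran from 5.54 to 69.1% in those 5 cells and from 19.9 to 89.9% in those 3.

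Cells with Ighm, Cd79b, Blnk, Lck, Gata3, Nkg7 or Id2 had a higher median of genes detected than cells without it at both ages, whereas the 4 cells with Cd79a had 3332 against 3974.5. The medians with and without Ighm were 4269 and 2692 genes at 4 months, and 3439 and 2532 at 14 months. With and without Cd79b they were 4891 and 3806, then 3852.5 and 2966.5. Of the 21 pairs of members each in 5 or more cells, 17 at 4 months and 16 at 14 months were together in more cells than the product of their shares gives. In set 4 alone, 8 of 15 such pairs lay above the product and 7 below, and in set 5 15 of 21 lay above and 6 below. The share of pairs above the product was not computed for other genes. The part of the number of genes detected in these counts was not tested.

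Single pairs differed by a few cells from the product of their shares. Ighm and Cd79b were together in 24 cells at 4 months (product 19.9) and in 14 at 14 months (product 12.8). Cd79b and Lck were together in 13 cells (product 11.7) and 2 cells (product 4.4), a pair above the product at 4 months and below it at 14 months. Gata3 and Id2 were together in 3 cells (product 1.8) and 8 cells (product 3.9), and the latter was 6 (product 2.9) with near-identical columns counted once.

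**Figure D3:**
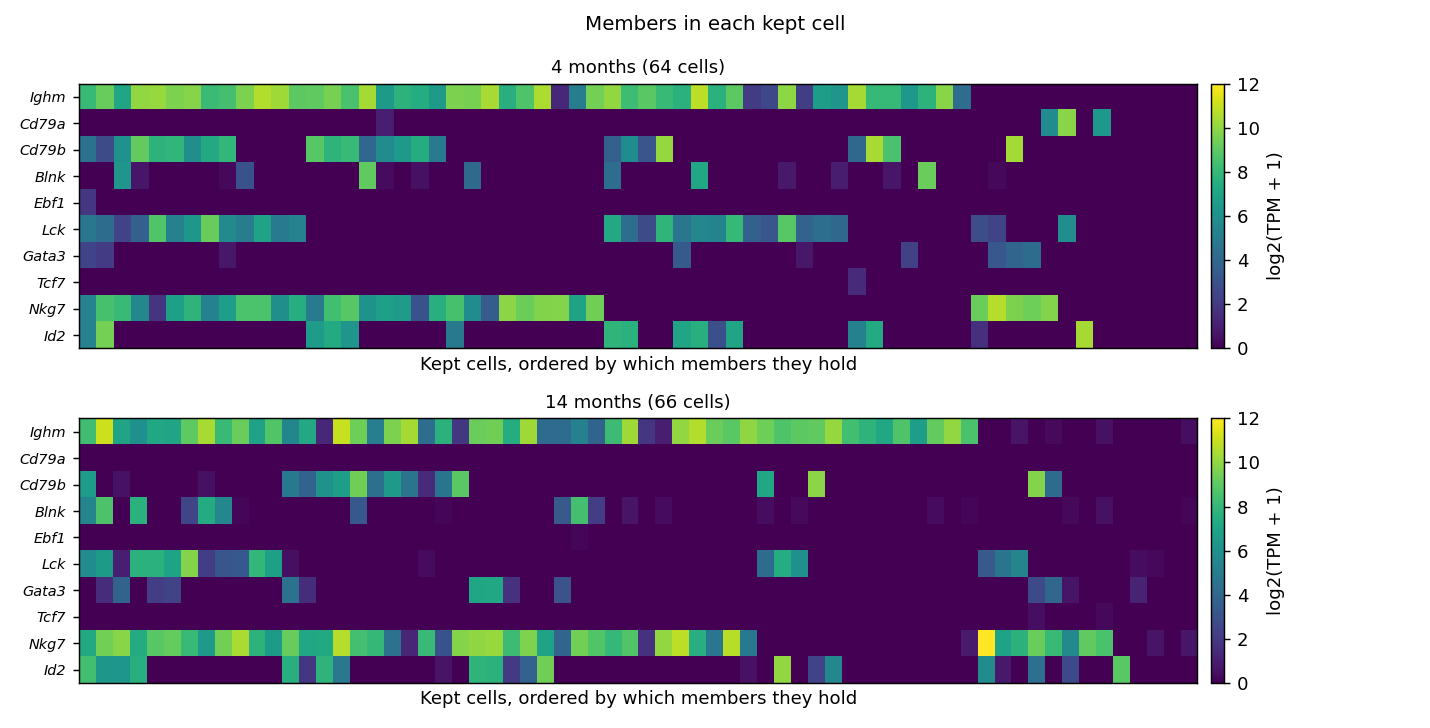
Rows are the 10 members and columns the 64 kept cells of 4 months (above) and the 66 of 14 months (below), ordered by which members they hold, with colour for log2(TPM + 1) from 0 to 12. Ighm and Nkg7 were together in 30 and 40 cells (products of the shares 27.9 and 38.5), and Lck and Nkg7 in 15 and 15 (products 16.4 and 13.1). The 4 cells with Cd79a stand mostly outside the run of cells with Ighm.

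Cells that held several B-lineage members were looked at singly. At least 3 of the 5 were found in 5 cells of 4 months, 7.81% (2.59 to 17.3%), and in 2 cells of 14 months, 3.03% (0.369 to 10.5%). All 7 held Ighm, Cd79b, Dntt and Flt3, and none held Pax5, Ms4a1, Cd22, Igkc or Igll1. The third B-lineage member was Blnk in 5 of them, Cd79a in 1 and Ebf1 in 1.

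The cell with Ebf1 held 7 members at once and had 5891 genes detected. Its values were 270 TPM of Ighm, 21.1 of Cd79b, 25.0 of Lck, 4.32 of Gata3, 39.5 of Nkg7 and 39.1 of Id2. Another of these 4-month cells held Ighm at 1320 TPM and Blnk at 532 TPM. It also held the interleukin 7 receptor gene Il7r at 78.7 and the surrogate light chain gene Vpreb1 at 37.2 TPM. In the same cell Ebf1, Cd79a, Igll1 and the recombinase genes Rag1 and Rag2 were at 0, and Nkg7 was at 70.7 TPM. That cell also held Siglech, a gene of plasmacytoid dendritic cells, at 18.8 TPM.

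At least 2 of the 3 T-lineage members were in 4 cells of each age, always Lck with Gata3. Of the 14-month cells, 2 are a near-identical pair, with Lck at 204 and 124 TPM and Gata3 at 3.50 and 4.49 TPM, so that 3 remain when the pair is counted once. Cd3e and Bcl11b, which mark committed T cells, were at 0 in all 8. Values of other T-cell markers below TPM 1 were seen in 4-month cells. Cd3d had 0.99 TPM in 1 of them, and another had Cd3d at 0.75 and Cd8a at 0.57 TPM, with Vpreb1 at 12.9 TPM. In one of the 4-month cells Rag1, part of the recombinase that cuts receptor genes, had 97.7 TPM beside Nkg7 at 1615 TPM, the highest Nkg7 value of that age.

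Other genes of these lineages were read from lists that name components rather than genes that moved. Of the 28 B-lineage genes matched, 10 were at TPM 1 or more in no kept cell, among them Pax5, Ms4a1, Cd22, Vpreb2, Vpreb3, Igll1, Iglc2, Spib and Ikzf3. The 3 in most cells were Dntt (48 and 57 cells at 4 and 14 months), Cd37, a tetraspanin of B cells (55 and 35), and Plcg2, the phospholipase downstream of BLNK (39 and 37). Of the 10 measured genes of the list, 2 lay at least 1 above the median gene, Dntt at 1.60 and Il7r at 1.29, and 1 at least 1 below it, Cd37 at -2.01. The sets differed for Il7r, which was in 7.81% of 4-month cells, 10.3% of set 4 cells and 27.0% of set 5 cells. The list's median was -0.17, where the median measured gene is 0 by construction.

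Of the 26 T-lineage genes matched, 8 were at TPM 1 or more in no kept cell: Cd3e, Cd3g, Ptcra, Cd8a, Cd2, Cd5, Bcl11b and Trbc1. The 3 in most cells were Cd27, a costimulatory receptor (50 and 45 cells), Runx3, a factor of cytotoxic cells (46 and 32), and Notch1, the receptor whose signal starts the T lineage (32 and 23). Of 8 measured genes, 0 lay at least 1 above the median gene and 1 at least 1 below it, Cd27 at -1.06. The list's median was -0.44.

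Of the 22 NK and ILC genes, 11 were at TPM 1 or more in no kept cell. The 3 in most cells were Tyrobp (35 and 23 cells) and Fcer1g (28 and 18), adaptors that myeloid cells share with NK cells, and the factor gene Ets1 (18 and 16). They were the only 3 measured. Their relative differences were -1.01, -0.88 and 0.15, so the adaptors lay below the median gene at 14 months while Nkg7 lay above it. Of the 5 measured genes of the E and Id proteins, which are Id2 itself and its partners and relatives, 0 lay 1 or more from the median gene in either direction.

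**Figure D4:**
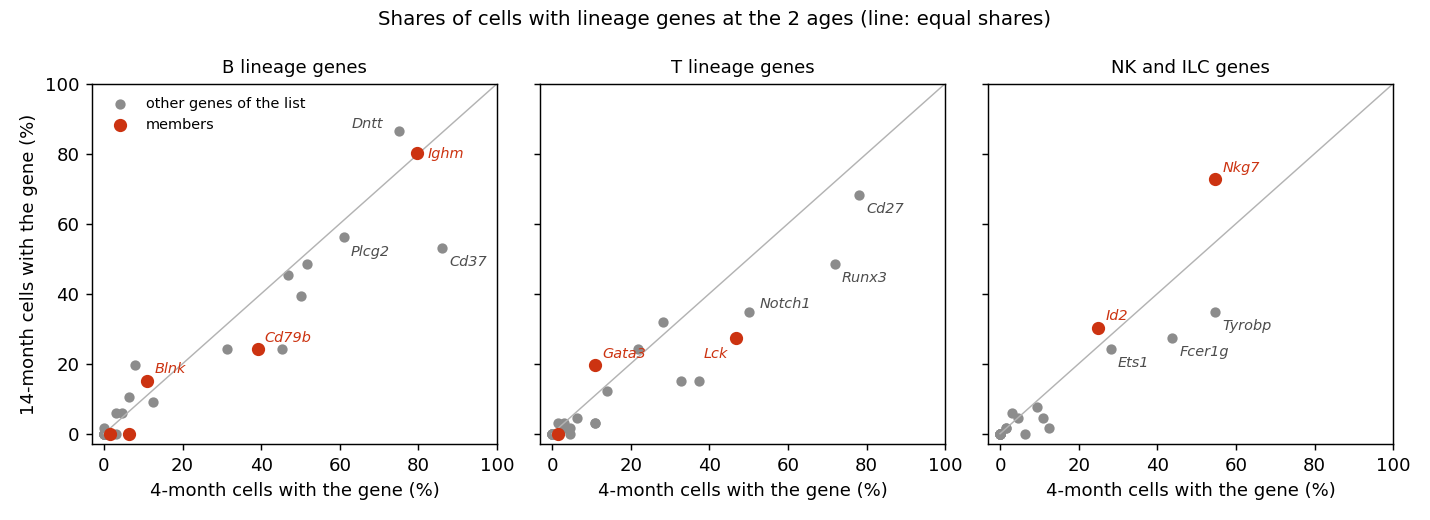
Each point is a gene, with the percent of 4-month cells that held it on the horizontal axis and the percent of 14-month cells on the vertical axis, for the B-lineage, T-lineage and NK and ILC lists, members in red. Most points lie on or under the line of equal shares, and Nkg7 and Dntt lie above it.

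The rest of the immunoglobulin genes was examined after the level of Ighm was seen. Of the 8 other constant gene rows, 7 were at 0 in all kept cells, and Igkc, the kappa light chain, was in 1 cell of 14 months, at 1615 TPM. Heavy chain variable genes were common: at least 1 of 104 Ighv rows was in 28 cells of 4 months, 43.8% (31.4 to 56.7%), and in 28 of 14 months, 42.4% (30.3 to 55.2%). The light chain variable genes were not, with at least 1 of 97 Igkv rows in 1 and 2 cells and Iglv rows in 0. None of the 9 joining and 18 diversity segment rows reached TPM 1 in any kept cell. Whether reads could be assigned to these segment rows was not examined, so no absence of such transcripts is read from this.

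Most of the variable gene signal came from Ighv1, the family with 49 of the 104 Ighv rows. Ighv1 genes were in 26 and 27 cells, at 154 and 196 TPM on average when summed. The other Ighv genes were in 4 and 2 cells, at 16.6 and 23.5 TPM, and the summed Igkv genes averaged 0.923 and 18.2 TPM. Of the cells with Ighv1, 24 of 26 and 26 of 27 also held Ighm, where the products of the shares gave 20.7 and 21.7. Genes of 1 family resemble each other, how reads were assigned among them was not examined, and no single one is named. T-cell receptor variable genes were in 8 and 3 cells.

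The members that were in at least 20% of cells of both ages varied from cell to cell together with different genes. Over 64 and 66 cells, the mean of the 2 Spearman correlations of Ighm was highest with Smim14 (0.46) and Rassf5 (0.46), among 4856 genes compared. Nkg7 was most like Psme2 (0.45), Ndufs3 (0.43) and Banf1 (0.42). Cd79b was most like Cops5 (0.42), Hdlbp (0.41) and Hsbp1 (0.41). Lck was nearest to Lamp2 (0.34), Thoc2 (0.33) and Mphosph10 (0.33), and Id2 to Piezo1, Dnajc7 and Coro1b (each 0.37). All cells share the number of genes detected as a common influence, with which Ighm itself correlated at 0.44 and 0.24 and Nkg7 at 0.40 and 0.19, so these values are descriptions only.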

How the data were processed

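Per the labels' protocols, single LMPPs were captured and amplified on a Fluidigm C1 chip with spike-in RNA. The authors deposited 1 table of TPM values. The submitters' processing notes name the aligner Bowtie2 (2.2.0), RSEM (1.2.12) and the mm10 build. TPM keeps no depth. Columns were assigned to an age by name, 84 to each. Since 83 cells are labelled as 14 months, 1 column of that age lacks a label, and which one is not known.

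Python 3.11.15, numpy 2.4.6, pandas 2.3.3 and scipy 1.17.1 were used, and the scripts were checked on simulated data. Symbols came from GENCODE's annotation of that build and matched 37607 of 38924 identifiers. Cells with at least 1000 genes at TPM 1 or more were kept. No doublet caller was run, since one needs counts. Levels are mean log2(TPM + 1), with a pseudocount of 1, which understates differences of low genes. All 10 members are named, as are the 3 genes of each list in most cells and its defining markers. For members in at least 20% of cells of both ages, the 3 genes most like them were named. Some genes that these rules take are not reported here. The members and lists were chosen with earlier results of these data known. Differences were refitted under other thresholds, filters, scalings, pseudocounts and sets, and counting near-identical columns once was added after seeing the data. A gene that overlaps Ebf1, Lck, Gata3 or Tcf7 was at TPM 1 or more in no kept cell.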

Additional observations from a re-analysis of the deposited data

Results flagged for a closer look

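Columns with fewer than 1000 genes detected entered no comparison, 20 of 4 months and 18 of 14 months, with medians of 516 and 581 genes. Ighm was in 10 of the 18 left-out columns of 14 months (55.6%, highest 1165 TPM), 9 of the 16 of set 4 and 1 of the 2 of set 5, and in 0 of the 20 of 4 months. Flt3 was in 7 and 6 of them. In the reverse direction, Blnk was in 4 of the 20 left-out columns of 4 months, with a highest value of 13.0 TPM, and in 0 of the 18 of 14 months. Both were singled out because a member was in more than 3 columns that entered no comparison, 3 being what a count of 0 allows. Of the other members, Lck was in 3 left-out columns of 4 months, up to 348 TPM, and in none of 14 months. Nkg7 was in 2 (up to 1788 TPM), Id2 in 2 (up to 769 TPM) and Cd79b in 1 (1205 TPM) of 14 months, and in none of 4 months. The cause was not tested.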

How the results depend on the processing

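No paired analysis was possible because the cell numbers in the labels only count cells within an age and no result comes from a test. Of 68 shares of cells recomputed for the lineage classes, 67 stayed inside the interval of the value reported. The exception was the T-lineage share at 14 months, 40.9% as reported and 27.3% at TPM 10 or more, which by construction leaves out cells with values from 1 to 10. As reported, 311 genes lay at least 1 above and 469 at least 1 below the median gene (3.37% and 5.08% of 9224). With no filter on low values these were 146 and 903 (0.814% and 5.04% of 17929). With genes in 30% of cells they were 334 and 297 (7.28% and 6.47% of 4587), so that more then lay above than below. The difference of Nkg7 stayed above 1 in all 16 settings (1.26 with a pseudocount of 10 to 3.01 with 0.1). Those of Blnk (0.19 to 0.86), Gata3 (0.27 to 1.12), Id2 (0.14 to 1.10) and Cd79b kept their sign. Cd79b was at -0.10 in matched cells and more than 1 below the median gene with no filter. Lck ran from -0.97 to -0.00, the latter, in set 4, being no difference. Ighm ranged from -0.11 with no filter to 0.86 in matched cells. Cells of 1 age may share an animal, and 1 sample an age allows no spread between animals.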
